A study of Mus musculus with 8 samples.

Results

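Gas6 and Pros1, which encode the ligands of the TAM receptor tyrosine kinases, and the receptor genes Axl, Tyro3 and Mertk were taken by symbol from the count table of stromal cells sorted from MO5 melanomas. All 5 genes were found, among 53801 genes in the table, and all 5 received an adjusted p-value, as did 15283 genes in all. MO5 is a B16 melanoma line that carries ovalbumin, and it was grown under the skin of ADAM12-GFP mice on the C57Bl/6 background, implanted at 8 to 12 weeks of age. These animals carry a bacterial artificial chromosome that places Cre-Ires-GFP under control of Adam12, so GFP reports activity of that promoter and is not a measure of ADAM12 protein. At day 8, CD45- CD31- PDPN+ PDGFRα+ cells were sorted into a GFP+ and a GFP- fraction, with 4 libraries of each, and both fractions came from tumors in the same kind of mouse, with no further treatment. By the study's convention n counts mice, but neither the labels nor the methods tie a GFP+ library to the GFP- library of the same mouse.

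GAS6 and protein S (the product of Pros1, better known as an anticoagulant cofactor of activated protein C) are secreted proteins with a vitamin K-dependent Gla domain that binds phosphatidylserine on dying cells, and a second part that binds TAM receptors. In this way they bridge a dying cell to a phagocyte, which then takes it up (efferocytosis) and dampens its inflammatory response. GAS6 binds AXL most tightly and also TYRO3 and MERTK, whereas protein S binds TYRO3 and MERTK. AXL is widely made by mesenchymal cells, MERTK is best known as the efferocytosis receptor of macrophages, and TYRO3 is most abundant in the nervous system. The comparison of GFP+ with GFP- cells asks which of these genes differ between stromal cells sorted as positive and as negative for the Adam12 reporter. Adam12 RNA was present in both fractions. The study had itself named Gas6 and Pros1 from these libraries, so their direction here is not independent evidence. Apart from these libraries, the study reported high Gas6 in ADAM12+ cells, as RNA by qRT-PCR and as secreted protein by ELISA.

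The libraries held from 883144 to 31666734 counted reads. GFP- replicate 3 was the shallowest, and the next held 7868787. Adam12 itself was higher in GFP+ libraries, with normalised counts of 920 to 1693 in GFP- and 1833 to 2938 in GFP+ cells (log2 fold change 0.75 ± 0.24, SE, adjusted p = 0.0266 in DESeq2 and 0.0643 in edgeR), a call lost in 6 of 15 alternatives. Across all tested genes DESeq2 called 4.66% higher and 4.76% lower in GFP+, and edgeR 2.83% and 2.28%. Of 10 fibroblast and gate genes, Adam12 among them, DESeq2 called 7 higher in GFP+ and none lower, and edgeR 5 and none. Pdgfra had the largest difference of these genes (log2 fold change 1.32 ± 0.17, SE, DESeq2 adjusted p = 1.9e-12). The most abundant of them, Col3a1 and Col1a1, had log2 fold changes of 0.80 (adjusted p = 0.0343 in DESeq2 and 0.0902 in edgeR) and 0.29 (DESeq2 adjusted p = 0.557), and the Col3a1 call was lost in 7 of 15 alternatives. All 11 melanocyte genes with a count were lower in GFP+ cells and passed the test in DESeq2 and in edgeR, with a median log2 fold change of -3.13 (Oca2 lost its call in 8 and Trpm1 in 6 of 15 alternatives); Dct and Tyrp1, which encode melanin synthesis enzymes, were the most abundant, with means of 16404 and 9519 in GFP- and 1876 and 1179 in GFP+ cells. Their summed normalised count was 26710 to 77290 in GFP- and 4559 to 12280 in GFP+ libraries, which was 0.275% to 0.839% and 0.0374% to 0.116% of all counted reads. Of the Schwann cell genes 3 of 4 tested were lower in DESeq2 and 1, Cdh19, in edgeR (means of 440 and 81.5), whereas Mbp did not pass (DESeq2 adjusted p = 0.292). Of 13 macrophage and leukocyte genes tested none was called by DESeq2 or edgeR, nor had any an unadjusted DESeq2 p under 0.05. Their sum ran from 1447 to 7361 in GFP- and from 1176 to 5803 in GFP+ libraries, and was highest in GFP- replicate 3 and GFP+ replicate 2. The most abundant of these genes, Lyz2 and Ptprc, had means of 675 and 624 in GFP- and 661 and 589 in GFP+ cells. None of 7 endothelial and 2 keratinocyte genes tested by DESeq2 was called by either tool (1 endothelial gene higher and 1 lower, and no keratinocyte gene, at an unadjusted DESeq2 p under 0.05). The most abundant were Tek, Kdr, Krt10 and Krt14, of which Krt14 received no adjusted p. Of 7 pericyte genes DESeq2 called Abcc9 higher (adjusted p = 0.0493 in DESeq2 and 0.0975 in edgeR) and Mcam lower, and not Notch3. The Abcc9 call was lost in 9 of 15 alternatives. None of the listed markers with a count was at 0 in all libraries. In sorted bulk samples of this kind, fewer cells of a type and less RNA per cell cannot be told apart.

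Gas6 was the ligand with the larger difference. Its normalised count was 2130, 2153, 2505 and 1430 in GFP- replicates 1 to 4, and 10850, 6018, 9177 and 3209 in GFP+ replicates 1 to 4. The groups did not overlap: the lowest GFP+ library, replicate 4, still lay above the highest GFP- library, replicate 3. The means were 2055 ± 450 in GFP- and 7313 ± 3391 in GFP+ cells (SD, n = 4 each). This was 3.57-fold, or 1.84 ± 0.33 (SE) on the log2 scale, with 1.18 to 2.49 as the 95% interval (adjusted p = 3.1e-06 in DESeq2 and 0.0047 in edgeR). The spread among GFP+ libraries was wide, with a ratio of 3.38 between the highest and the lowest, against 1.75 in GFP-. Of the 712 genes that DESeq2 called higher in GFP+, which were 4.66% of those tested, 132 had a larger log2 fold change than Gas6. The summed melanocyte genes, given above, also differed between the fractions without overlap, at 26710 to 77290 in GFP- and 4559 to 12280 in GFP+ libraries, and with their level in the fit, as given further on, the Gas6 call was lost.

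Pros1 rose by less and with a narrower spread. Its normalised count was 1719, 1259, 1494 and 1307 in GFP- replicates 1 to 4, and 2527, 2112, 2468 and 2712 in GFP+ replicates 1 to 4. Again every GFP+ library lay above every GFP- library. The means were 1445 ± 209 and 2455 ± 251 (SD, n = 4 each), which differed on the log2 scale by 0.77 ± 0.17 (SE; 95% interval 0.44 to 1.10), or 1.70-fold (adjusted p = 0.00020 in DESeq2 and 0.0115 in edgeR). GFP+ replicate 4, the lowest of its group for Gas6, was the highest for Pros1. Both ligands were thus called higher, against a background of 4.66% in DESeq2 and 2.83% in edgeR, and both were among the 6.37% of tested genes whose groups did not overlap in this direction. With the melanocyte gene level in the fit, as given further on, the Pros1 call was lost as well, at a log2 fold change of 0.72 (DESeq2 adjusted p = 0.773).

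Axl, the receptor with the highest level in both fractions, did not pass the test. Its normalised count was 8713, 8658, 8592 and 7600 in GFP- replicates 1 to 4, and 12245, 8786, 10430 and 8001 in GFP+ replicates 1 to 4. GFP+ replicate 4 lay within the GFP- range, and the other GFP+ libraries lay above it. The means were 8391 ± 529 and 9866 ± 1882 (SD, n = 4 each), which differed on the log2 scale by 0.23 ± 0.17 (SE; adjusted p = 0.469 in DESeq2 and 0.476 in edgeR). The 95% interval of the fold change ran from 0.934 to 1.48, so a rise as large as the estimate for Pros1, 1.70-fold, lay outside it. The interval of Pros1 itself, 1.36 to 2.14, overlapped that of Axl, and the changes of these genes were not tested against each other.

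Mertk moved the opposite way to the ligands. Its normalised count was 322, 427, 297 and 564 in GFP- replicates 1 to 4, and 56.9, 194, 58.4 and 181 in GFP+ replicates 1 to 4. The groups did not overlap, and the GFP+ libraries fell into a lower pair, replicates 1 and 3, and a higher pair, replicates 2 and 4. The means were 402 ± 122 and 122 ± 75.0 (SD, n = 4 each), so that the log2 fold change was -1.72 ± 0.45 (SE; 95% interval -2.59 to -0.84), or 3.29-fold lower in GFP+ (adjusted p = 0.0030 in DESeq2 and 0.0373 in edgeR). DESeq2 called 4.76% of tested genes lower in GFP+ (edgeR 2.28%), and 5.95% did not overlap in this direction. Of the 727 genes called lower by DESeq2, 337 fell by more than Mertk on the log2 scale. In GFP- replicate 3 the value rests on 27 reads. The Mertk call was lost too once the melanocyte gene level was in the fit.

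Tyro3 had few reads and no detectable difference. Its normalised count was 231, 65.2, 132 and 151 in GFP- replicates 1 to 4, and 178, 90.4, 49.2 and 73.5 in GFP+ replicates 1 to 4. The groups overlapped over most of their range. The means were 145 ± 68.1 and 97.7 ± 56.0 (SD, n = 4 each), so that the log2 fold change was -0.58 ± 0.50 (SE; adjusted p = 0.568 in DESeq2 and 0.622 in edgeR). The 95% interval, -1.57 to 0.41, also held drops nearly as large as that of Mertk, and raw counts were as low as 12 reads in GFP- replicate 3. Of the receptors 1 of 3 was therefore called, and it was lower, whereas 2 of 2 ligands were called and both were higher.

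**Figure D1:**
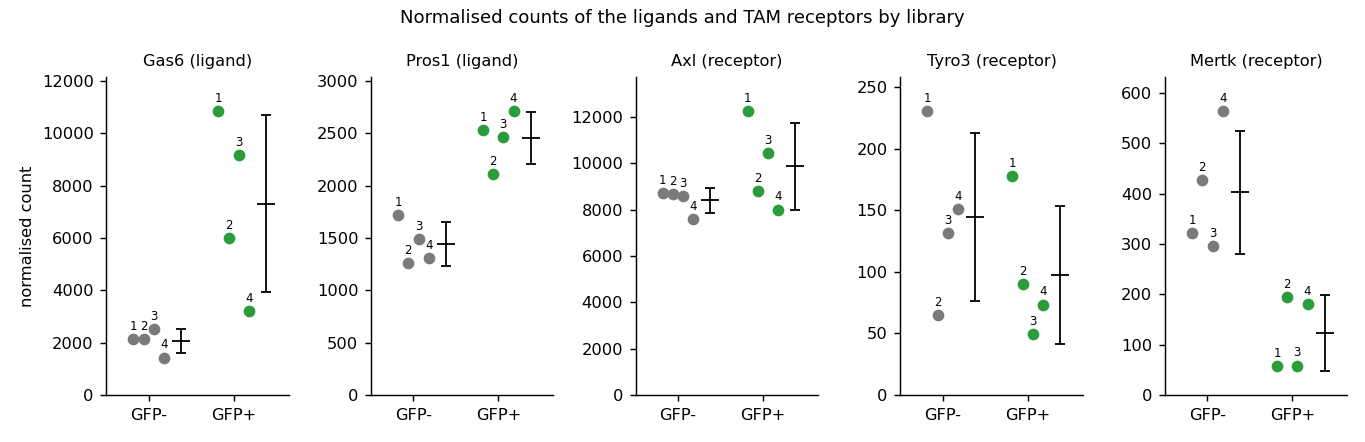
Normalised count of each gene (linear axes from 0, one panel per gene) in the 4 GFP- and 4 GFP+ libraries, with replicate numbers above the points and bars for mean ± SD. Gas6 and Pros1 were higher and Mertk was lower in every GFP+ library than in every GFP- library, whereas the groups overlapped for Axl and Tyro3.

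**Figure D2:**
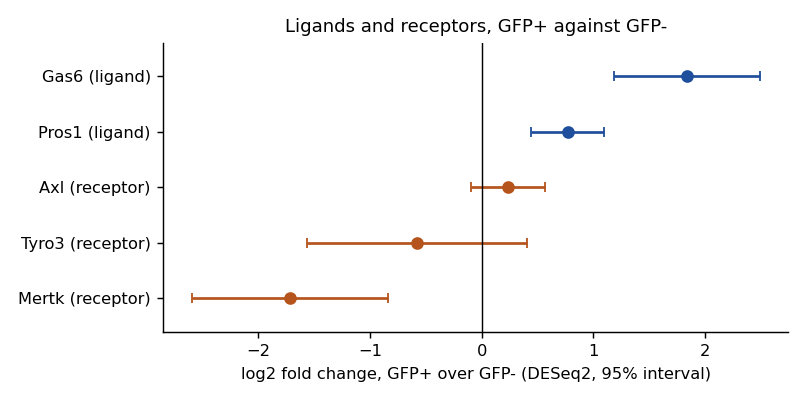
DESeq2 log2 fold change of GFP+ over GFP- cells (horizontal axis) for the ligands (blue) and receptors (orange), with 95% intervals. The intervals of Gas6 (1.18 to 2.49) and Pros1 (0.44 to 1.10) lay above 0 and that of Mertk (-2.59 to -0.84) below 0, whereas those of Axl and Tyro3 included 0.

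The genes lie apart in the genome. In GRCm38 coordinates of the GENCODE M21 annotation, Gas6 (ENSMUSG00000031451) spans bases 13465374 to 13494490 of chromosome 8 on the minus strand, and Pros1 (ENSMUSG00000022912) spans 62854307 to 62929346 of chromosome 16 on the plus strand. Axl (ENSMUSG00000002602) lies at 25757273 to 25788705 of chromosome 7 on the minus strand. Tyro3 (ENSMUSG00000027298) at 119797733 to 119818104 and Mertk (ENSMUSG00000014361) at 128698956 to 128802894 share the plus strand of chromosome 2. The 3′ end of Gas6 overlaps Tmem255b on the other strand, but counting used strand and Tmem255b had at most 52 raw counts in any library. Mertk overlaps an antisense gene, Gm14011, with at most 1 raw count in any library.

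The sequence just upstream of the RefSeq start is shown for the 3 genes that passed the test, since Gas6 and Pros1 rose together and Mertk fell. The 250 bases are given 5′ to 3′ on the strand of the gene, from RefSeq on GRCm38.p6, in lower case, with GC boxes (GGGCGG on either strand, matches may overlap) in capitals. They cover chr8:13494536-13494785 (minus strand) for Gas6, chr16:62854057-62854306 (plus) for Pros1 and chr2:128698665-128698914 (plus) for Mertk.
Gas6: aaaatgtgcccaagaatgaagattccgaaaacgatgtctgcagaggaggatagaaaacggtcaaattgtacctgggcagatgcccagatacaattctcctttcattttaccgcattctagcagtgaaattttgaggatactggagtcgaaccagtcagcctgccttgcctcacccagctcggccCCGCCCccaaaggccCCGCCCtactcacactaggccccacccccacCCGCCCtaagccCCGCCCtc
Pros1: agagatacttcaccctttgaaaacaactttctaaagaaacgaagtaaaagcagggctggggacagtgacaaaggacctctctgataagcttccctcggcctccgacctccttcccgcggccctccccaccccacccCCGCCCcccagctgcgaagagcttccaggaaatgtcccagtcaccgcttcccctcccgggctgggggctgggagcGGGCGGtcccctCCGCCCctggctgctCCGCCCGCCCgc
Mertk: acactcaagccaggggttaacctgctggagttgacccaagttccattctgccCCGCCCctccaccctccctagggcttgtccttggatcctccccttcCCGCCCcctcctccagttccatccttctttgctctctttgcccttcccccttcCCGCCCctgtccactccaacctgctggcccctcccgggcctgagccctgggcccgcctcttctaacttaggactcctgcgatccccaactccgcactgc
The window held 4 GC boxes in Gas6, 5 in Pros1, 3 in Mertk, 3 in Tyro3 and 1 in Axl, and 32.7% of 32851 mouse promoter windows of this length held at least 1. At least 3 were held by 8.47%, at least 4 by 4.09% and at least 5 by 1.93% of the windows. GC content was 54.8% in Gas6, 64.4% in Pros1 and 63.6% in Mertk. The AP-1 letters TGANTCA, searched on both strands, were in none of the 5 windows and in 6.75% of all. Both motifs were chosen after the counts were seen. GC boxes were thus found upstream of genes that rose, of the gene that fell and of those that did not pass the test.

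Levels of different genes were compared per length, as TPM (counts per kilobase of merged exons scaled to 1000000 per library). In GFP- cells the order was the same in 4 of 4 libraries: Axl, Gas6, Pros1, Mertk, Tyro3. Axl stood at 399 ± 30.5 TPM, Gas6 at 193 ± 47.6, Pros1 at 84.3 ± 10.8, Mertk at 22.2 ± 7.0 and Tyro3 at 5.5 ± 2.4 TPM (SD, n = 4), and no neighbours in this order overlapped. In GFP+ cells Gas6 stood first at 554 ± 215 TPM, then Axl at 384 ± 58.6, Pros1 at 118 ± 12.5, Mertk at 6.0 ± 4.4 and Tyro3 at 3.1 ± 1.5 TPM. There Gas6 and Axl overlapped, as did Mertk and Tyro3: Gas6 lay above Axl in 3 of 4 GFP+ libraries, the exception being replicate 4, and Mertk above Tyro3 in 3 of 4, the exception being replicate 1. Pros1 was below Axl and above Mertk in every library of both fractions.

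TPM was used to order genes within libraries, and the tests between fractions rest on normalised counts. A single short RNA, Gm23935 of 57 bases, took 30.5% to 44.8% of the TPM scale. On this scale the means of Axl were 399 in GFP- and 384 in GFP+, the reverse of the direction of its normalised counts. For Gas6 GFP+ replicate 4, at 241 TPM, lay just under GFP- replicate 3, at 252 TPM. Pros1 and Mertk did not overlap between groups on either scale.

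Ratios between genes of the same library do not depend on that scale. The ratio of Gas6 to Axl was 0.483, 0.491, 0.576 and 0.372 in GFP- replicates 1 to 4, and 1.75, 1.35, 1.74 and 0.792 in GFP+ replicates 1 to 4. It did not overlap between groups and passed 1 in 3 of 4 GFP+ libraries and in no GFP- library. The 2 ligands summed over the 3 receptors summed gave 0.648 ± 0.093 in GFP- and 1.69 ± 0.39 in GFP+ cells (SD, n = 4 each), from 0.529 to 0.751 and from 1.17 to 2.01. The ligand sum was therefore below the receptor sum in every GFP- library and above it in every GFP+ library. These ratios combine genes already compared above and were not tested.

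Within the receptors, Axl made up 93.4% ± 1.9 of the summed level in GFP- and 97.7% ± 1.1 in GFP+ cells (SD, n = 4 each). Mertk held 3.81% to 7.81% of the receptor sum in GFP- and 0.531% to 2.54% in GFP+ libraries. Within the ligands, Gas6 made up 63.7% to 73.3% in GFP- and 65.5% to 87.3% in GFP+ libraries. GFP+ replicate 4, at 65.5%, lay within the GFP- range, and the other GFP+ libraries were at 82.1% or more.

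**Figure D3:**
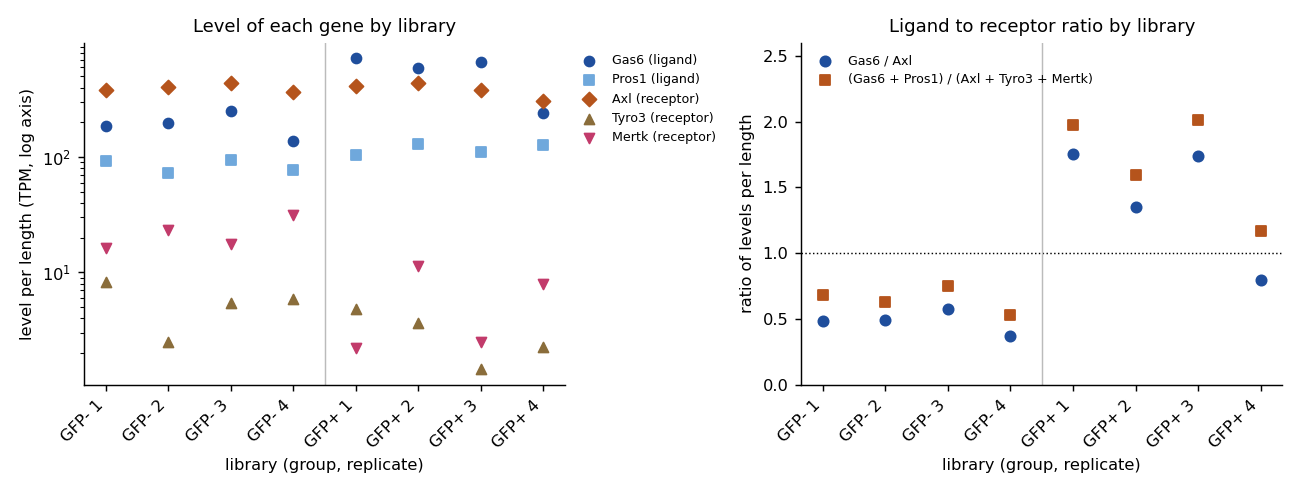
Left, level per length of each gene (TPM, log axis) in each library. Right, the ratio of Gas6 to Axl and of summed ligands to summed receptors in the same libraries (linear axis from 0, dotted line at 1): the ligand to receptor ratio was 0.529 to 0.751 in GFP- and 1.17 to 2.01 in GFP+ libraries.

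The melanocyte genes moved with Gas6 and Mertk, also within the groups. Ordered by their summed normalised count, the GFP+ libraries ran 4559 in replicate 1, 4686 in replicate 3, 7868 in replicate 2 and 12280 in replicate 4. The GFP- libraries followed with 26710 in replicate 3, 48670 in replicate 2, 53530 in replicate 1 and 77290 in replicate 4. Gas6 fell along this order in all 8 libraries, from 10850 in GFP+ replicate 1 to 1430 in GFP- replicate 4. Mertk ran the other way, with the lowest values in GFP+ replicates 1 and 3 and the highest in GFP- replicate 4, and 4 of 8 libraries held the same rank in both orders. Axl held the reversed rank in 4 of 8 libraries when all were ranked together. Ranked within GFP+ cells alone, it did so in all 4, from 12245 in replicate 1 to 8001 in replicate 4. For Pros1 none of the 8 libraries held the same or the reversed rank when all were ranked together. Ranked within GFP+ cells alone, Pros1 held the same rank in 2 of 4, and within GFP- cells in none.

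When the mean log2 level of the melanocyte list was added to the DESeq2 fit, a choice made after seeing the data, the log2 fold change of Gas6 became -0.26 ± 0.37 (SE, adjusted p = 0.981) and that of Mertk 0.57 ± 0.65 (adjusted p = 0.973), so both calls were lost and both directions turned. Pros1 kept its direction at 0.72 ± 0.38 (SE, adjusted p = 0.773) without passing the test, and Axl turned to -0.46 ± 0.24 (adjusted p = 0.773). All 11 melanocyte genes differed between the groups without overlap, and only 43 genes of the whole table were called in this fit, so the fraction and the melanocyte gene level can hardly be told apart in 8 libraries. With the macrophage and leukocyte level in its place, Gas6 stayed at 1.73, Pros1 at 0.76 and Mertk at -1.90 on the log2 scale, all still called by DESeq2. Within GFP+ cells the leukocyte sum was 1789, 5803, 1176 and 2939 in replicates 1 to 4, and Mertk was higher in replicates 2 and 4. Within GFP- cells it was 1872, 1447, 7361 and 2586, and Mertk was lowest in replicate 3, where that sum was highest.

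**Figure D4:**
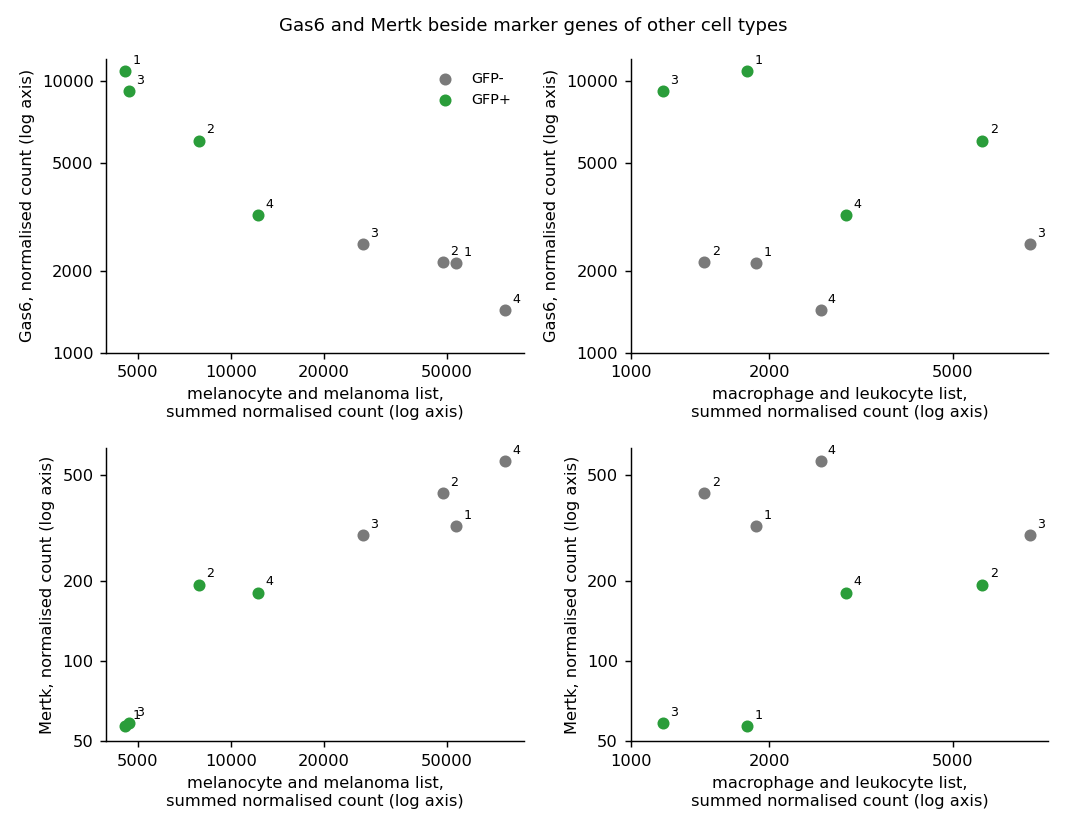
Normalised counts of Gas6 (top) and Mertk (bottom) against the summed normalised count of 11 melanocyte genes (left) and 14 macrophage and leukocyte genes (right) in each library, on log axes, with replicate numbers beside the points. Gas6 fell in all 8 libraries along the melanocyte sum, which did not overlap between GFP+ (4559 to 12280) and GFP- (26710 to 77290) libraries, whereas the leukocyte sums of the groups overlapped.

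The genes closest in pattern to each member were found among the 8812 genes whose normalised counts averaged 100 or more, by the mean absolute difference of centred log2 values over 8 libraries. For Gas6 these were Ggt5, a gamma-glutamyltransferase that acts on leukotriene C4, at 0.152, Gpx3, the secreted glutathione peroxidase, at 0.177, and Aldh1a1, a retinal dehydrogenase, at 0.182 on the log2 scale, against a median over genes of 0.924. Gpx3 had means of 10888 in GFP- and 31603 in GFP+ cells. For Pros1 they were C1ra, a protease of the classical complement pathway, at 0.0705, Atl3, an endoplasmic reticulum GTPase, at 0.0858, and Tpst1, a tyrosylprotein sulfotransferase, at 0.0888 (median 0.478). For Mertk they were Trpv2, a cation channel, at 0.210, Mreg, which encodes the melanosome protein melanoregulin, at 0.213, and Pkp4, a junction plakophilin, at 0.232 (median 1.00). Mreg had means of 328 in GFP- and 75.1 in GFP+ cells. Axl was closest to Tm9sf4, Ddb1 and Nup93 (0.0501 to 0.0570, median 0.344), and Tyro3 to 1600020E01Rik, Nfs1 and Supv3l1 (0.190 to 0.257, median 0.696). The distance is a description, and genes with large shared differences between the groups are close by construction.

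Of other bridging and eat-me molecules, 3 of 12 tested genes were called higher and 1 lower by DESeq2, with a median log2 fold change of -0.0065, against -0.0082 over all 15283 tested genes. Of those 15283 genes DESeq2 called 4.66% higher and 4.76% lower. Thbs1, encoding thrombospondin 1, which links dying cells to CD36 and integrin αv, had normalised counts of 11990, 12350, 12230 and 5233 in GFP- and 25280, 18400, 25780 and 19090 in GFP+ replicates 1 to 4. No library overlapped (log2 fold change 1.08 ± 0.27, SE, adjusted p = 0.0020 in DESeq2 and 0.0242 in edgeR). Lgals3, encoding galectin 3, a reported MERTK ligand that the study also named from these libraries, rose from 590 ± 171 to 1182 ± 293 (SD, n = 4 each; DESeq2 adjusted p = 0.0031). Anxa5, whose product coats exposed phosphatidylserine, was called by DESeq2 at a log2 fold change of 0.56 (adjusted p = 0.0212) and not by edgeR (0.0609). Edil3, a bridging protein for integrin αv, had means of only 19.2 and 3.5 normalised counts, and its DESeq2 call (adjusted p = 0.0445) was lost without independent filtering (0.0834). Ptx3, the pentraxin with the second highest mean of the list, had a log2 fold change of 0.62 that did not pass (DESeq2 adjusted p = 0.142). With the melanocyte gene level in the fit, Thbs1 was at 0.17 (DESeq2 adjusted p = 0.989) and Lgals3 at -0.15 on the log2 scale, and none of the 19 genes called in this and the other pathway lists stayed called.

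Among all tested genes DESeq2 called 4.66% higher and 4.76% lower, and edgeR 2.83% and 2.28%. Of 15 tested receptors for dying cells outside the TAM family, 2 were higher and 2 lower in DESeq2 and in edgeR (median log2 fold change 0.12). Lrp1, the endocytic receptor that also serves as a calreticulin receptor, had the highest counts and rose from 31327 to 56847 on average (log2 fold change 0.86 ± 0.18, SE, DESeq2 adjusted p = 5.0e-05). Cd36, the thrombospondin receptor and fatty acid scavenger, had normalised counts of 121, 68.1, 286 and 76.2 in GFP- and 403, 380, 310 and 516 in GFP+ replicates 1 to 4 (log2 fold change 1.70 ± 0.42, SE, DESeq2 adjusted p = 0.0014). Megf10, an engulfment receptor of glia, fell from 168 to 22.6 (log2 fold change -2.84 ± 0.55, SE, DESeq2 adjusted p = 1.6e-05), and Scarb1, the scavenger receptor for high-density lipoprotein, from 236 to 88.4 (DESeq2 adjusted p = 0.00032). Itgav, the integrin αv subunit, had means of 3173 and 3445 (DESeq2 adjusted p = 0.748). With the melanocyte gene level in the fit Cd36 was at 1.34, Lrp1 at 0.14, Megf10 at -0.48 and Scarb1 at -0.34 on the log2 scale, with DESeq2 adjusted p-values of 0.905 or more.

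GAS6 and protein S need vitamin K-dependent carboxylation to bind phosphatidylserine. Of 6 tested genes of the vitamin K cycle none was called by DESeq2 or edgeR, and none had an unadjusted DESeq2 p under 0.05. Ggcx, the carboxylase itself, had means of 584 and 505 normalised counts in GFP- and GFP+ cells, and Calu, the calumenin inhibitor of that step, 8141 and 9723. DESeq2 called 4.66% of all tested genes higher and 4.76% lower. Of 8 tested genes for other Gla or Gla-like proteins 1 was called higher and none lower in DESeq2 (2 higher and 1 lower at an unadjusted p under 0.05), and none in edgeR. The called gene was Prrg3, a transmembrane Gla protein, with means of 241 and 442 (log2 fold change 0.92 ± 0.28, SE, adjusted p = 0.0132 in DESeq2 and 0.0664 in edgeR). Postn, the abundant matrix protein periostin, had means of 28419 and 17827 with overlapping libraries (DESeq2 adjusted p = 0.591).

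TAM receptors are shed from the cell surface by metalloproteases. Across all tested genes DESeq2 called 4.66% higher and 4.76% lower, and edgeR 2.83% and 2.28%. Of 6 genes of shedding and its control 1 was called higher, Timp3, an inhibitor of ADAM proteases, which rose from 8345 to 16309 (log2 fold change 0.97 ± 0.23, SE, adjusted p = 0.00096 in DESeq2 and 0.0175 in edgeR). The sheddase gene Adam10 had means of 1477 and 1049 (DESeq2 adjusted p = 0.124). Of 21 genes for adaptors, kinases and feedback proteins below these receptors, 3 were higher and 3 lower in DESeq2, and 2 and 1 in edgeR. Socs1 and Socs3, the cytokine signalling suppressors that TAM receptors induce in dendritic cells, had log2 fold changes of 0.93 ± 0.29 and 0.73 ± 0.20 (SE; DESeq2 adjusted p = 0.0173 and 0.0053, edgeR 0.0508 and 0.0297), and Pik3r1, a regulatory subunit of phosphoinositide 3-kinase, was the third, at 0.73. The lower genes were Pik3cb, a catalytic subunit of the same kinase, at -1.88, the kinase gene Akt1 at -0.65 and Src at -0.71 on the log2 scale. Fyn, with the second highest level of the list, had means of 3206 and 2777 (DESeq2 adjusted p = 0.559).

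Of 13 genes of the engulfment machinery 1 was called in DESeq2 and in edgeR, the cholesterol exporter Abca1, which rose (log2 fold change 0.77 ± 0.21, SE, DESeq2 adjusted p = 0.0061). Dock1, the exchange factor for RAC1, did not pass (0.14, DESeq2 adjusted p = 0.638). Of 10 tested genes that control phosphatidylserine exposure, Atp11b, encoding a flippase that returns the lipid to the inner leaflet, was called higher (log2 fold change 0.92 ± 0.24, SE, DESeq2 adjusted p = 0.0032). The scramblase gene Ano6 and the flippase gene Atp11a did not pass (0.31 and -0.24). Of 5 tested genes for signals that inhibit uptake 1 was called, Cd47, the ligand of the phagocyte inhibitory receptor SIRPα. It had normalised counts of 2188, 2705, 2857 and 2236 in GFP- and 4591, 3706, 4768 and 5161 in GFP+ replicates 1 to 4, a log2 fold change of 0.87 ± 0.17 (SE, DESeq2 adjusted p = 1.4e-05) with no overlap; with the melanocyte gene level in the fit it was 0.74 (adjusted p = 0.731). Sirpa had means of 1656 and 1412 (DESeq2 adjusted p = 0.621). Across the 96 tested genes of the 9 pathway lists 13 were called higher and 6 lower by DESeq2, on a background of 4.66% and 4.76% of tested genes.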

How the data were processed

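Libraries were made from total RNA of sorted cells with a strand-preserving low-input kit. Per the study's methods and the submitters' processing notes, the authors trimmed reads with cutadapt 3.4, aligned them to GRCm38 with STAR 2.7.3a and counted them per gene, by strand, with featureCounts 2.0.1 on Ensembl 92 annotation. The deposited raw counts of 8 libraries were used. A further 8 columns of normalised values were left out, as were the authors' columns of base means, fold changes, p-values and dispersions. Here counts were scaled by median-of-ratios factors and tested across all genes with DESeq2 1.42.0 (group only, Wald test, independent filtering, Benjamini-Hochberg threshold 0.05) in R 4.3.3, and with edgeR 4.0.16 (quasi-likelihood, TMM). Intervals are 95% Wald intervals. Exon lengths came from GENCODE M21 (99.82% of gene identifiers found). Scripts were tested on simulated counts. The members and lists were chosen with earlier results of these data known. Text names all 5 members, the 3 genes closest in pattern to each, from each pathway list the called gene with the largest change in each direction, and from every list the 2 genes with the highest mean normalised count; other genes named, which are further called list members, were chosen after their values were seen. Alternatives were edgeR, TMM factors, a minimum mean of 10 counts, no independent or Cook's filter, a replicate block, each library left out and, for levels, transcript length and scaling.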

Additional observations from a re-analysis of the deposited data

Results flagged for a closer look

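The Axl normalised count in GFP- cells was flagged because 1 library stood away from the others: replicate 4 had 7600, against 8592 to 8713 in replicates 1 to 3. Its gap to the nearest library was 0.892 of the group's range, above Dixon's 95% limit for groups of 4. Of 14 groups examined this was the only one, and chance alone flags about 1 in 20. Without GFP- replicate 4, Axl still did not pass the DESeq2 test.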

How the results depend on the processing

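DESeq2 called 1439 genes in all (712 higher and 727 lower in GFP+), edgeR 732 (405 and 327), DESeq2 with a replicate block 1492, and edgeR with a replicate block 596 (340 and 256). Leaving out a library gave 969 to 1837, with 460 higher genes without GFP+ replicate 3 and 469 lower genes without GFP- replicate 4. Same-numbered libraries did not all deviate together (r = -0.127 to 0.254, above 0.1 in 2 of 4 pairs), so the numbers were not taken as pairs. Between different-numbered libraries r ran from -0.209 to 0.197. Whether the fractions are paired was thus left unsettled. The block changed no call of a member: in DESeq2 the log2 fold changes were 1.71 for Gas6, 0.77 for Pros1, 0.22 for Axl, -0.56 for Tyro3 and -1.87 for Mertk. Under the 15 alternatives set at the start, and with the leukocyte level in the fit, Gas6 (1.60 to 2.09), Pros1 (0.70 to 0.87) and Mertk (-2.02 to -1.48) kept their direction and stayed called, with adjusted p-values up to 0.0047, 0.0192 and 0.0411, and Axl (0.13 to 0.32) and Tyro3 stayed uncalled. Tyro3 moved from -0.58 to -0.24 without GFP- replicate 1, to -0.36 without GFP+ replicate 3 and to -1.02 without GFP+ replicate 1. With the melanocyte level in the DESeq2 fit, chosen after seeing the data, 43 genes were called (16 higher and 27 lower), Pros1 was at 0.72 without a call, and Gas6 (-0.26), Axl (-0.46), Mertk (0.57), Lgals3 (-0.15), Abca1 (-0.12) and Timp3 (-0.081) turned their sign. The cause was not tested, and the list level differed between the groups without overlap. The difference in the mean log2 ratio of Gas6 to Axl was 1.37 to 1.76 with the longest transcript length or a library left out, the alternatives run on it. The order Axl, Gas6, Pros1, Mertk, Tyro3 was held in 5 of 8 libraries, a count that other lengths and scaling did not change. Scaled by size factors, Gas6 was at 173 in GFP- and 615 in GFP+ cells and Axl at 357 and 420, so that the mean over both fractions was higher for Gas6, whereas in TPM it was higher for Axl. Of the 19 called pathway genes 8 kept their call in all 15 alternatives set at the start. Edil3 lost it in 12, Anxa5 in 7, Prrg3, Socs1 and Src in 5 each, Pik3cb in 2, and Cd36, Megf10, Scarb1, Akt1 and Socs3 only in edgeR with a replicate block. The lower calls of Mcam and Cdh19 were lost there too. GFP- replicate 3, with 883144 reads, held 12 reads of Tyro3 and 27 of Mertk.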
